A study of Arabidopsis thaliana with 18 samples.

Results

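The 6 libraries compared here came from root tips of 2 Arabidopsis thaliana single mutants, gun1-101 and nac103-11, with 3 libraries each, out of 18 libraries in the series. They were chosen by genotype, and both lines carry the normal RAB8D gene. The series asks how loss of GUN1 or of NAC103 alters gene expression in roots of the wild type Col-0 (WT) and of rab8d-2, a mutant deficient in the plastid translation elongation factor EF-Tu. The other 4 groups, also with 3 libraries each, were WT, rab8d-2 and the double mutants of rab8d-2 with either line. Values of WT and of the double mutants are given beside the single mutants, since the double mutants compare the same pair of alleles in separate libraries. All seedlings grew without further treatment on diluted Murashige and Skoog medium with 1% sucrose in 16 h of light and 8 h of dark. Seedlings were 4 days old by the sample titles and 3 days old by the text on the series. The labels call the libraries biological replicates without saying that they came from separate cultures, so the p-values measure the spread between these libraries.

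GUN1 is a pentatricopeptide repeat protein of the plastid, known for its part in signals from the plastid to the nucleus. NAC103 is a transcription factor of the NAC family, linked to the unfolded protein response of the endoplasmic reticulum and to DNA damage signalling. A direct comparison of these mutants shows where the lines differ from each other, and WT values are given beside them.

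Total counts of the 6 libraries were 22847248 to 23090995, and 21004 genes were tested. Levels are given in CPM, counts scaled for library depth with TMM factors. In 2 genotypes the third library lay far from its own group (WT replicate 3 and replicate 3 of nac103-11 rab8d-2). The total counts of calls, and those of the lists with the largest changes, are also given without them. Their correlations with their own group were 0.921 and 0.924 for WT replicate 3 and 0.915 and 0.891 for the other. The rab8d-2 libraries were also spread, at 0.938, 0.942 and 0.956 between pairs, and were kept. On the first principal component of the 9 WT and single mutant libraries, which held 36.2% of the variance, WT replicate 3 scored 55.8, beside 45.4 to 49.9 for gun1-101. WT replicates 1 and 2 scored -36.7 and -65.6, and nac103-11 scored between -39.3 and -20.9.

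The mutated genes were read first. GUN1 was at 68.4, 78.7 and 91.7 CPM in gun1-101 and at 104, 155 and 131 CPM in nac103-11, beside 133, 143 and 166 CPM in WT. All gun1-101 libraries lay below all nac103-11 and WT libraries, while the transcript remained detectable in gun1-101. The log2 fold change of gun1-101 over nac103-11 was -0.71 ± 0.17 (SE, n = 3 per genotype), and it missed the threshold in edgeR's quasi-likelihood test over the 18 libraries (Benjamini-Hochberg adjusted p = 0.0544). NAC103 was at 0.0841, 0.185 and 0.139 CPM in nac103-11 and at 0.481, 0.493 and 0.790 CPM in gun1-101, so the groups did not overlap (log2 2.08 ± 0.67, adjusted p = 0.119). In counts this was 9 in all of nac103-11 and 40 in all of gun1-101. RABE1b, the name of RAB8D in the table, was at 98.9 ± 12.2 CPM (SD, n = 3) in gun1-101 and 115 ± 24.2 in nac103-11, with overlapping libraries and an adjusted p of 0.778.

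In the edgeR fit of all 18 libraries, 252 genes differed between the single mutants at an adjusted p below 0.05, which is 1.2% of the genes tested. Of these, 142 (0.676% of genes tested) were higher and 110 (0.524%) lower in gun1-101. The difference was at least 2-fold for 209 genes and at least 4-fold for 100. All 252 separated the 3 libraries of one line from the 3 of the other, as 39.7% of all tested genes did. The estimate of spread in this fit draws on all 6 genotypes, and its common dispersion was 0.104. A fit of the 6 libraries alone had a common dispersion of 0.0391 and called 3505 of 19948 genes (17.6%), with 1839 (9.22%) higher and 1666 (8.35%) lower in gun1-101. It called 250 of the 252 genes in the same direction. Leaving WT replicate 3 and nac103-11 rab8d-2 replicate 3 out of the larger fit gave 1824 calls (8.61%; 875 higher, 4.13%, and 949 lower, 4.48%), among them all 252. Leaving out one library of the pair compared reduced the calls to 10, 9 and 105 without gun1-101 replicates 1, 2 and 3, and to 30, 67 and 66 without nac103-11 replicates 1, 2 and 3.

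The WT mean lay between the means of the mutants for 140 of the 142 higher genes and for 107 of the 110 lower genes. Of the 252 genes, 128 had a gun1-101 mean farther from WT than the nac103-11 mean. These WT means average libraries that split on the first principal component. Replicate 3 lay near gun1-101 there, and replicates 1 and 2 lay on the side of nac103-11. The means thus do not show that WT was intermediate, and the same share over all genes was not computed. Tested against WT in the same fit, gun1-101 differed in 4 genes (0.019% of genes tested), namely MRD1, IMS2, G6PD3 and AT4G29200, all lower in gun1-101. nac103-11 differed in 2 genes (0.00952%), with AT1G75945 higher (0.00476%) and AT4G29200 lower (0.00476%). These comparisons share the WT libraries. Without the 2 libraries that stood apart, the counts against WT were 3946 and 1219 of 21183 genes tested. That fit keeps only the WT replicates on the side of nac103-11. Genotype and the split among the WT libraries cannot be told apart in these counts.

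The morning genes of the circadian clock had the largest median log2 fold change of the 34 lists compared. CCA1 and LHY, MYB-related repressors that peak at dawn, were high in gun1-101 and near their lowest levels in nac103-11, and evening genes such as ELF4 went the other way. These genes form a loop of mutual repression in which morning factors lower the evening genes and evening factors lower the morning genes, so their levels follow the time of day. CCA1, LHY, ELF4, PCL1, GRP7 and TOC1 are named here after their values were seen.

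Promoter windows of 3 of these genes are shown because they carry one or both of the motifs by which morning and evening genes are usually told apart. The windows run from 250 bases before to 50 bases after the start of the RefSeq gene (TAIR10.1, gene strand, 5′ to 3′). PRR5 lies at chr5:8358497-8358796 (minus strand), CCA1 at chr2:19245341-19245640 (plus strand) and LHY at chr1:37822-38121 (minus strand). Capitals mark the evening element core AATATCT and the G-box CACGTG on either strand.
PRR5: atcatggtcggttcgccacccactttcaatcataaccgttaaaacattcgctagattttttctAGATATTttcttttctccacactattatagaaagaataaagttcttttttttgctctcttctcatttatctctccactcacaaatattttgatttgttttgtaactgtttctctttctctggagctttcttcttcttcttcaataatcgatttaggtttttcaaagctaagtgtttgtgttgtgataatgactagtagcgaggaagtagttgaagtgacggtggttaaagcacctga
CCA1: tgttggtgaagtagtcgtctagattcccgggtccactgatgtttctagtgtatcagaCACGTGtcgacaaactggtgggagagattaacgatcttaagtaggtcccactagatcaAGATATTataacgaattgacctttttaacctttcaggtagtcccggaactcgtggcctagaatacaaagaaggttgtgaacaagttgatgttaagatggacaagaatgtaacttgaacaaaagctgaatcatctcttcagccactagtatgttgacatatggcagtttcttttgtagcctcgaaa
LHY: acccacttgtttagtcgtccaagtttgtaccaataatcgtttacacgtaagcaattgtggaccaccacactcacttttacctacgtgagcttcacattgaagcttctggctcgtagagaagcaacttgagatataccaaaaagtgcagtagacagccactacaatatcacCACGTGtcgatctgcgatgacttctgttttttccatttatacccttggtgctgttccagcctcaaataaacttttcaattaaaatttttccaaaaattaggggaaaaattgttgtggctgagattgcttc
The evening element core, the letters to which CCA1 and LHY are known to bind, was present once each in the windows of PRR5 and CCA1. The G-box, a site of basic helix-loop-helix and basic leucine zipper factors, was present once each in CCA1 and LHY.

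The evening element core was in the window of 9 of 13 evening genes (69.2%), 4 of 9 morning genes (44.4%) and 2417 of the 21003 tested genes with a window (11.5%). The G-box was in 8 of 9 morning genes (88.9%), 3 of 13 evening genes (23.1%) and 8.77% of all. Among the genes that differed between the lines, the core was in 28 of the 110 lower in gun1-101 (25.5%) and in 17 of the 142 higher (12%). The G-box was in 31 of the 142 higher genes (21.8%) and in 7 of the 110 lower genes (6.36%). A match describes the sequence and is not evidence of binding.

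CCA1 was at 47.7, 36.1 and 39.4 CPM in gun1-101 and at 0.967, 0.881 and 0.417 CPM in nac103-11. WT was at 0.149, 0.377 and 77.0 CPM, so WT replicates 1 and 2 lay with nac103-11 and replicate 3 above gun1-101. The log2 fold change between the lines was 5.75 ± 2.19 (adjusted p = 0.183 in the 18-library fit and 0.000417 in the 6-library fit). LHY had the same order, with 26.0 to 33.7 CPM in gun1-101, 0.546 to 0.973 CPM in nac103-11, and 0.398, 0.431 and 70.9 CPM in WT. LCL1, the RVE4 gene of the REVEILLE family and the morning gene with the smallest p, was at 116, 134 and 129 CPM in gun1-101 and 43.6, 41.3 and 55.5 CPM in nac103-11 (log2 1.43 ± 0.39, adjusted p = 0.0746, and 0.00159 in the 6-library fit).

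ELF4, a part of the evening complex, was at 3.67, 2.64 and 4.12 CPM in gun1-101 against 101, 101 and 103 CPM in nac103-11 (log2 -4.86 ± 1.32, adjusted p = 0.0758, and 0.000276 in the 6-library fit). In WT it was at 135, 163 and 2.35 CPM, again with replicate 3 on the side of gun1-101. PRR5, a pseudo-response regulator and the evening gene with the smallest p, was at 5.47, 5.06 and 4.69 CPM in gun1-101 and 29.9, 34.8 and 24.8 CPM in nac103-11 (log2 -2.55 ± 0.68, adjusted p = 0.0723, and 0.000797 in the 6-library fit). PCL1, which encodes the evening complex factor LUX, fell between means of 129 CPM in nac103-11 and 35.2 CPM in gun1-101 by the 6-library fit (adjusted p = 0.000986). GRP7, a clock-regulated RNA-binding protein gene, was at 383 ± 108 CPM in gun1-101 and 2401 ± 36.0 in nac103-11, a drop that passed in the same fit (adjusted p = 0.00110). TOC1, a repressor of CCA1, was at 41.8 ± 3.07 CPM and 125 ± 8.44 CPM, respectively.

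All 9 morning genes had a log2 fold change above 0, with a median of 2.84, and 11 of 13 evening genes were below 0, with a median of -1.58, beside a median of -0.008 over all genes. None of them passed in edgeR's 18-library fit, in which 6 morning genes were higher and 8 evening genes lower at an unadjusted p below 0.05. In the 6-library fit 9 of 9 morning genes rose, while 9 of 13 evening genes fell and 1 rose. Without the 2 libraries that lay far from their groups, the larger fit called 3 morning genes higher and 8 evening genes lower. Among all genes tested, the 6-library fit called 9.22% higher and 8.35% lower, and this larger fit 4.13% and 4.48%. Averaged as log2(CPM + 1), the morning list stood at 5.76, 5.62 and 5.64 in gun1-101 and at 3.12, 2.83 and 2.74 in nac103-11. WT was at 2.08, 2.43 and 6.31. The evening list stood at 4.82, 4.83 and 4.83 in gun1-101, at 6.17, 6.3 and 6.22 in nac103-11, and at 6.02, 6.42 and 4.50 in WT. The labels give no time of harvest, and the clock state of the libraries and the genotype cannot be told apart in this comparison.

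**Figure D1:**
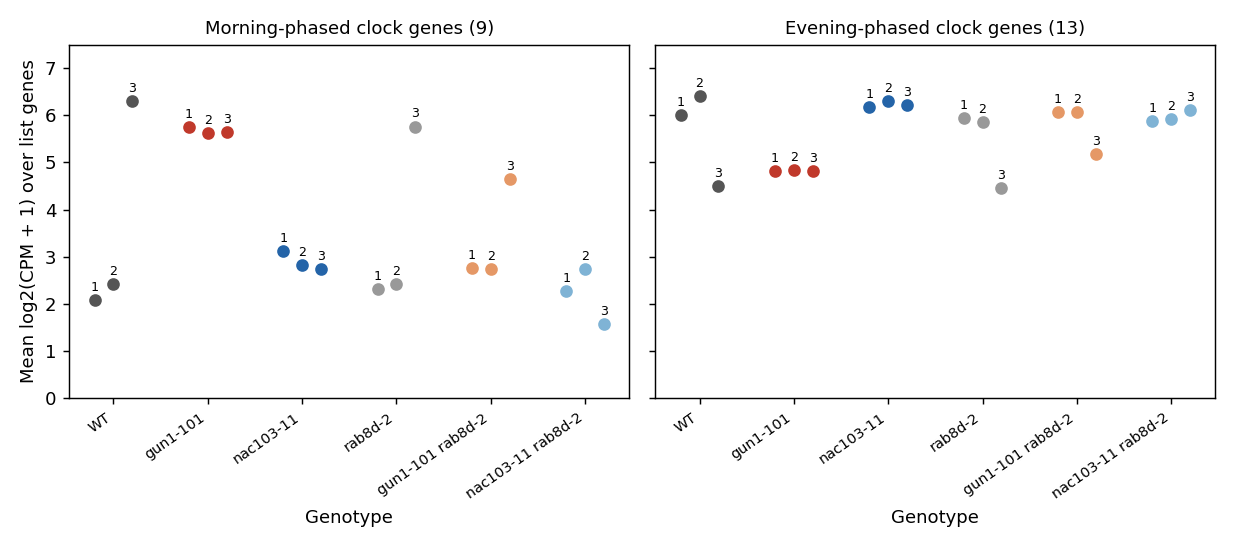
Mean log2(CPM + 1) of 9 morning-phased and 13 evening-phased clock genes in each of the 18 libraries, with replicate numbers beside the points. The 3 gun1-101 libraries lie at 5.62 to 5.76 for the morning list, above the 3 nac103-11 libraries at 2.74 to 3.12, and WT replicate 3 lies with gun1-101.

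The double mutants split differently. The morning list averaged 2.75, 2.73 and 4.65 in gun1-101 rab8d-2 and 2.28, 2.74 and 1.58 in nac103-11 rab8d-2. For the evening list the values were 6.07, 6.07 and 5.19 against 5.87, 5.93 and 6.12. Replicates 1 and 2 of these genotypes were thus close to each other in both lists, unlike the single mutants. The CDF and light genes downstream of the clock had 12 of 16 members above 0 in the single mutants, with a median of 1.02. CDF2, a DOF repressor of flowering genes, was the one called, at 37.1, 37.2 and 33.6 CPM in gun1-101 and 12.8, 9.87 and 13.5 CPM in nac103-11 (log2 1.58 ± 0.36, adjusted p = 0.0475). WT replicate 3 was at 29.7 CPM and the other WT libraries at 11.8 and 11.5.

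Aliphatic glucosinolate genes were the group with the most calls. These genes make defence compounds of the Brassicaceae from methionine, first by chain elongation and then by conversion of the elongated amino acid to the glucosinolate core. Of 23 genes tested, 10 fell and 1 rose in gun1-101 against nac103-11, and the median log2 fold change was -1.71. The 6-library fit, and the larger fit without the 2 distant libraries, each called 13 lower and 1 higher. Tested against WT, IMS2 was the one member called lower in gun1-101.

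MYB28, the main transcriptional activator of the pathway, was at 5.16, 3.23 and 4.91 CPM in gun1-101 and 22.6, 40.0 and 20.1 CPM in nac103-11, beside 24.1, 14.6 and 8.52 CPM in WT. The lines did not overlap (log2 -2.64 ± 0.40, adjusted p = 0.0101). IMS2, the methylthioalkylmalate synthase MAM3 of chain elongation, was at 6.73, 4.35 and 8.29 CPM in gun1-101. It was at 83.7, 166 and 86.7 CPM in nac103-11 and at 57.8, 39.3 and 43.6 CPM in WT, so gun1-101 was the lowest and nac103-11 the highest (log2 -4.12 ± 0.41, adjusted p = 0.000351). Against WT, IMS2 fell by 2.86 ± 0.39 on the log2 scale in gun1-101 (adjusted p = 0.0133). MAM1, the neighbouring synthase gene, was at 0.481, 0.672 and 2.06 CPM in gun1-101 and 13.4, 30.0 and 16.9 CPM in nac103-11 (log2 -4.22 ± 0.65, adjusted p = 0.0108).

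The other steps of elongation fell as well. BCAT4, the aminotransferase that starts it, was at 0.262, 0.403 and 1.76 CPM in gun1-101 and 11.2, 51.7 and 12 CPM in nac103-11 (log2 -4.94 ± 0.95, adjusted p = 0.0254). IPMI2, IMD1 and GSTF11 are named after their values were seen. IPMI1 and IPMI2, isomerase subunits, changed by log2 -4.17 and -3.70, and the dehydrogenase gene IMD1 by -3.27. In the core pathway CYP79F2, which makes the aldoxime, was at 1.44, 0.851 and 2.33 CPM in gun1-101 against 32.2, 73.3 and 25.9 CPM in nac103-11 (log2 -4.82 ± 0.60, adjusted p = 0.00304). CYP83A1, the next P450, was at 0.481, 1.12 and 1.93 CPM against 17.3, 65.4 and 17.9 CPM (log2 -4.83 ± 0.79, adjusted p = 0.0132). GSTF11 had 0.0437 to 0.0448 CPM in each gun1-101 library and 2.06, 5.42 and 0.788 CPM in nac103-11.

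nac103-11 replicate 2 was the highest library of that line for MYB28, IMS2, MAM1, BCAT4, CYP79F2 and CYP83A1. Without it the log2 fold changes of the named glucosinolate genes kept their sign, and CYP79F2 and IMS2 kept the call without each of the 6 libraries in turn. SOT18, a sulfotransferase of the last core step, went the other way, at 33.8, 36.3 and 40.9 CPM in gun1-101 against 7.15, 15.2 and 15.5 CPM in nac103-11 (log2 1.55 ± 0.32, adjusted p = 0.0315). In WT it was at 63.5, 58.5 and 34.6 CPM, so both mutants had lower means than WT. CYP79F1 and CYP79F2, and MAM1 and IMS2, are neighbouring copies, and how their shared reads were split is a limit on each value. The list of indole glucosinolate and camalexin genes had no member called among 22 by edgeR, with 2 higher and 3 lower at an unadjusted p below 0.05, and its median was -0.07. MYB34, an activator of the indole branch and the member with the smallest p, was at 231 ± 16.0 CPM in gun1-101 and 95 ± 17.6 in nac103-11 (log2 1.28 ± 0.31, adjusted p = 0.0557, and 0.00277 in the 6-library fit).

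**Figure D2:**
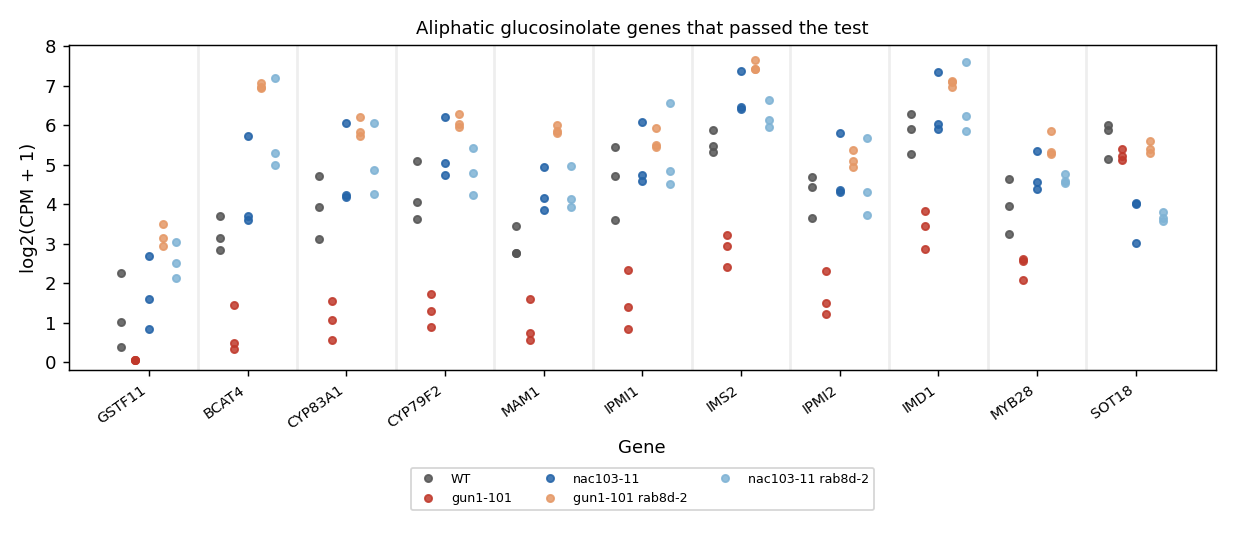
Level of the 11 aliphatic glucosinolate genes that passed the test, as log2(CPM + 1), with 1 point per library for WT, the single mutants and the double mutants. The gun1-101 points lie lowest for the 10 genes to the left, and for SOT18 the lowest points are those of nac103-11 and nac103-11 rab8d-2.

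The same alleles gave no such drop in the double mutants. IMS2 was at 170, 170 and 202 CPM in gun1-101 rab8d-2 and at 61.8, 69.8 and 98.4 CPM in nac103-11 rab8d-2, a log2 difference of 1.24 ± 0.36 (adjusted p = 0.0594). The test of the difference between the pairs (double mutants minus single mutants) passed for IMS2 at log2 5.35 (adjusted p = 0.00131), for CYP79F2 at 6.05, for MAM1 at 5.73, for CYP83A1 at 5.51 and for MYB28 at 3.53. The aliphatic list had 15 of 23 members above 0 in the double mutants, with 1 higher (SOT18) and none lower.

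Genes of the abscisic acid response tended to be higher in gun1-101. This hormone signals water shortage, and protein phosphatases of class 2C that restrain the pathway are among the genes it induces. Of 34 genes tested, 2 were called higher, none lower, and 32 had a log2 fold change above 0, with a median of 1.54. The 6-library fit called 22 higher and none lower, and the larger fit without the 2 distant libraries called 12 higher and none lower. Of all genes, the 18-library fit called 0.676% higher, the 6-library fit 9.22% and the larger fit without those libraries 4.13%. HAI1, a phosphatase of this class, was at 131, 134 and 89.5 CPM in gun1-101 and 5.84, 6.07 and 8.30 CPM in nac103-11 (log2 4.13 ± 0.79, adjusted p = 0.0240). In WT it was at 21.2, 17.7 and 101 CPM, so WT replicate 3 lay within the range of gun1-101 and the other WT libraries above nac103-11. HAI2, its close relative, was at 5.16, 4.75 and 2.54 CPM against 0.0420, 0.278 and 0.325 CPM (log2 4.26 ± 0.80, adjusted p = 0.0236).

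Genes of desiccation tolerance were also among the 15 largest increases. XERO1, a dehydrin, was at 15.2, 15.8 and 15.4 CPM in gun1-101 and 1.05, 0.649 and 2.41 CPM in nac103-11 (log2 3.5 ± 0.77, adjusted p = 0.0417), with WT between at 3.14, 4.74 and 9.13 CPM. LEA7, a late embryogenesis abundant protein, was at 9.40, 8.42 and 12.7 CPM against 1.26, 1.02 and 1.86 CPM (log2 2.88 ± 0.57, adjusted p = 0.0288). MYB41, a regulator of suberin and cuticle genes, was at 40.1, 29.6 and 23.3 CPM against 3.99, 5.84 and 4.54 CPM (log2 2.69 ± 0.61, adjusted p = 0.0457), and at 61.5 CPM in WT replicate 3. PYL6, a receptor of the hormone, went down, at 1.18, 0.627 and 0.965 CPM in gun1-101 and 14.3, 22.1 and 15.4 CPM in nac103-11 (log2 -4.21 ± 0.73, adjusted p = 0.0178). In the double mutants the list's median was 0.39 and no member was called, and HAI1 was at 9.27 to 13.7 CPM in gun1-101 rab8d-2 and 8.43 to 10.3 CPM in nac103-11 rab8d-2. The morning clock list moved with these genes, at 5.62 to 5.76 in gun1-101 and 2.74 to 3.12 in nac103-11, and its part in the difference was not tested.

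The remaining largest increases were of mixed function. AT5G28520 had the highest log2 fold change under the rule for named genes, at 5.51, 6.32 and 4.3 CPM in gun1-101 against 0.294, 0.185 and 0.417 CPM in nac103-11 (log2 4.14 ± 0.96, adjusted p = 0.0498). GSTU18, a glutathione transferase, was at 28.4, 28.5 and 15.8 CPM against 1.93, 3.62 and 2.37 CPM, and NADP-ME1, a cytosolic malic enzyme, at 27.7, 27.7 and 26.9 CPM against 2.02, 3.34 and 4.08 CPM. AT2G26690, the NPF6.2 member of the nitrate and peptide transporter family, was the most abundant of the 15, at 187, 205 and 162 CPM against 23.7, 24.2 and 30.3 CPM (log2 2.83 ± 0.52, adjusted p = 0.0218). CGLD27, conserved in the green lineage and diatoms, was at 35.4, 27.8 and 26.8 CPM against 4.58, 5.14 and 4.50 CPM. The other 6 genes (AT3G21380, AT3G48510, AT2G21820, AT5G63350, AT1G17830 and AT2G31945) had log2 fold changes of 2.64 to 3.39. In WT replicate 3 the levels of GSTU18, NADP-ME1, AT2G26690 and CGLD27 were above those of WT replicates 1 and 2.

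The gene with the lowest log2 fold change was AT1G75945, described below with the double mutants. AZI1, a lipid transfer protein of systemic immunity, came next and was at 3.11, 1.21 and 3.07 CPM in gun1-101 and 223, 359 and 318 CPM in nac103-11 (log2 -6.92 ± 1.24, adjusted p = 0.0191). EARLI1, its neighbour of the same family, was at 1.36, 0.493 and 1.1 CPM against 104, 158 and 81.4 CPM (log2 -6.86 ± 1.27, adjusted p = 0.0222). In WT, AZI1 was at 121, 256 and 7.82 CPM and EARLI1 at 34.7, 113 and 2.91 CPM, so WT replicate 3 lay nearest to gun1-101 for both. AZI1 and EARLI1 are similar in sequence, and reads shared between them could be split by the counting. AT1G05700 was at 0.262, 0.269 and 0.132 CPM against 5.42, 9.92 and 5.05 CPM (log2 -4.91 ± 0.69, adjusted p = 0.00696). AT1G27020 and AT1G78460 had log2 fold changes of -3.90 and -3.75.

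Hair cell genes of the root epidermis were mostly lower in gun1-101. Of 32 root hair markers, 28 had a log2 fold change below 0 and the median was -1.20. The 18-library fit called 1 lower, that fit without the 2 distant libraries 11 lower, and the 6-library fit 18 lower. Over all genes these fits called 0.524%, 4.48% and 8.35% lower. PERK13, a receptor-like kinase of root hair growth, was at 24.9, 14.2 and 18.3 CPM in gun1-101 and 51.1, 42.4 and 51.4 CPM in nac103-11 (log2 -1.34 ± 0.30, adjusted p = 0.0424). WT was at 14.7, 37.5 and 29.5 CPM, which overlapped gun1-101. The summed level of the 32 markers was 2242, 1872 and 1781 CPM in gun1-101 and 3495, 2720 and 4097 CPM in nac103-11, and 1866, 4106 and 2233 CPM in WT. In such bulk samples fewer cells of a type and less RNA per cell cannot be told apart. In the double mutants the list's median was -0.30 with none called.

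Nitrogen and sugar genes held single calls. G6PD3, a plastid glucose-6-phosphate dehydrogenase that supplies reductant and responds to nitrate, was at 8.75, 8.11 and 8.64 CPM in gun1-101, at 34.9, 51.4 and 29.2 CPM in nac103-11 and at 19.6, 25.9 and 27.4 CPM in WT. All 3 genotypes were separate, with WT between (log2 -2.18 ± 0.21, adjusted p = 0.000269). Its drop against WT in gun1-101 passed too (log2 -1.52 ± 0.20, adjusted p = 0.0133). Of 36 nitrate genes tested, 29 had a log2 fold change below 0, with a median of -0.46, and the 6-library fit called 12 lower and 1 higher. Without the 2 distant libraries 7 were called lower. SUS3, a sucrose synthase, was at 34.6, 38.3 and 28.3 CPM against 6.22, 11.6 and 10.3 CPM (log2 1.84 ± 0.42, adjusted p = 0.0489) and was the 1 member called among 42 sugar and starvation genes. FLS1, which makes flavonols, was at 36.3, 21.1 and 29.5 CPM against 130, 111 and 92.3 CPM (log2 -1.94 ± 0.44, adjusted p = 0.0479) and was the 1 called of 16 flavonoid genes. The 6-library fit called 7 of those lower and 1 higher, and the larger fit without the 2 distant libraries 3 lower. Of the sugar and starvation genes these fits called 7 higher and 5 lower, and 2 higher and 2 lower. Over all genes the 18-library fit called 1.2%. The 6-library fit called 9.22% higher and 8.35% lower, and the larger fit without those libraries 4.13% and 4.48%.

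Genes of auxin, cytokinin and ethylene held 5 calls in the 18-library fit, which called 1.2% of all genes tested. TAA1, the aminotransferase that begins auxin synthesis, was at 11.1, 12.5 and 14.4 CPM in gun1-101 and 23.8, 17.9 and 22.4 CPM in nac103-11 (log2 -0.75 ± 0.17, adjusted p = 0.0474). PIN7, an auxin efflux carrier of the columella and stele, was at 45.0, 45.1 and 45.5 CPM against 65.4, 87.6 and 67.2 CPM (log2 -0.70 ± 0.15, adjusted p = 0.0403). These were the 2 called of 40 auxin genes, both lower. CKX4, which breaks down cytokinin, rose by log2 1.81 ± 0.38 (adjusted p = 0.0368), and IPT3, which makes it, fell by 1.99 ± 0.45 on the log2 scale (adjusted p = 0.0439), the 2 called of 34 cytokinin genes. AT2G19590, the ACC oxidase 1 gene of ethylene synthesis, was at 10.3, 7.97 and 10.7 CPM against 47.8, 36.4 and 43.2 CPM (log2 -2.14 ± 0.40, adjusted p = 0.0236), the 1 called of 27 ethylene genes. ADG1, the small subunit of ADP-glucose pyrophosphorylase for starch, and PIN7 were the 2 called of 14 columella and root cap genes. ADG1 was at 26.7, 27.8 and 30.9 CPM in gun1-101 and 56.3, 59.0 and 58.5 CPM in nac103-11 (log2 -1.02 ± 0.21, adjusted p = 0.0295).

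Lists of the pathways in which GUN1 and NAC103 are known to act are read against all genes, of which 1.2% were called in the 18-library fit and 17.6% in the 6-library fit. Of 31 genes of tetrapyrrole synthesis and GUN signalling, none passed in the 18-library fit, with GUN1 itself the member with the smallest p. Of 19 plastid translation genes none passed in either fit, and their median was -0.02. EMB3126, a plastid ribosomal protein gene and the member with the smallest p, had a log2 fold change of 0.23 ± 0.16. Of 34 plastid chaperone, import and protease genes none passed in the 18-library fit, and TOC75-III, the outer envelope import channel, had a log2 fold change of -0.54 ± 0.16 (adjusted p = 0.0891). Of 31 genes of the unfolded protein response 1 passed: PDIL1-1, a protein disulfide isomerase, at 360, 319 and 381 CPM in gun1-101 and 658, 566 and 590 CPM in nac103-11 (log2 -0.78 ± 0.16, adjusted p = 0.0297), with WT at 349, 477 and 419 CPM. Of 33 DNA damage genes none passed, and RNR1, a ribonucleotide reductase gene, had a log2 fold change of -0.57 ± 0.18 (adjusted p = 0.119). At an unadjusted p below 0.05 the edgeR fit of 18 libraries had 2 higher and 4 lower tetrapyrrole genes, 2 and 3 plastid chaperone genes, 2 and 3 DNA damage genes, and no plastid translation gene in either direction. Over all genes tested, 3723 (17.7%) reached that p. The 6-library fit called 3 higher and 3 lower in the tetrapyrrole list, 3 higher and 3 lower in the plastid chaperone list, 3 higher and 1 lower in the unfolded protein list, and 2 higher and 3 lower in the DNA damage list.

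Cell cycle genes leaned to lower values in gun1-101 by small amounts. Of 28 S phase genes 26 were below 0 with a median of -0.31, and of 30 genes of the G2 and M phases 27 were below 0 with a median of -0.27. None passed in edgeR's 18-library fit, where an unadjusted p below 0.05 was reached by 1 higher and 4 lower S phase genes and by 2 lower genes of the G2 and M phases (over all genes, 17.7%). The 6-library fit called 1 higher and 2 lower in S phase and 1 lower in the G2 and M phases. CYCB1;3, a mitotic cyclin, was at 11.0, 13 and 11.9 CPM in gun1-101 and 18.4, 19.4 and 18.8 CPM in nac103-11 (log2 -0.66 ± 0.23, adjusted p = 0.153). RNR2A, a ribonucleotide reductase subunit, had a log2 fold change of 0.41 ± 0.13 (adjusted p = 0.112).

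Lists that mark other tissues or stress varied between libraries. The 39 photosynthesis genes, a sign of shoot tissue or greening, summed to 1509, 1377 and 1690 CPM in gun1-101 and 529, 1145 and 1405 CPM in nac103-11, and none was called in the 18-library fit. The 6-library fit called 6 higher in gun1-101, and none was called without the 2 distant libraries. RBCS2B, a small subunit of Rubisco, was at 0.175 to 0.439 CPM in gun1-101 and 0.0841, 3.43 and 43.3 CPM in nac103-11. Seed storage and oil body genes summed to 51.2, 127 and 77.9 CPM in gun1-101 and 6.10, 15.4 and 18.8 CPM in nac103-11, with 9 of the 10 tested above 0 and none called in the 18-library fit. The 6-library fit called 4 higher, and the larger fit without the 2 distant libraries 1. OLEO1, an oil body protein gene and the member with the smallest p, was at 4.24, 13.9 and 5.70 CPM against 0.0841, 0.788 and 0.788 CPM (log2 3.85 ± 1.60, adjusted p = 0.219). Their median turned from 1.51 in the single mutants to -1.45 in the double mutants. The 26 heat shock genes had 22 members above 0 and a median of 0.99. None was called in the 18-library fit, where 6 were higher at an unadjusted p below 0.05. The 6-library fit called 10 higher, and the larger fit without the 2 distant libraries 5. Over all genes, 17.7% reached that p in either direction, and the other fits called 9.22% and 4.13% higher. HSF_A4A, a heat shock factor and the member with the smallest p, was at 66.5, 57.8 and 25.1 CPM in gun1-101 and 17.6, 23.9 and 21.6 CPM in nac103-11 (log2 1.25 ± 0.35, adjusted p = 0.0822). Summed heat shock levels reached 12470 CPM in WT replicate 3, beside 1512 to 2476 CPM in gun1-101 and 940.3 to 1149 CPM in nac103-11. Their part in the differences above was not tested.

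Markers of root tissues were detected in both lines. SCR, which patterns the endodermis and the stem cell niche, was at 47.3, 55.1 and 59.3 CPM in gun1-101 and 63.7, 67.7 and 74.6 CPM in nac103-11 (log2 -0.35 ± 0.13, adjusted p = 0.177). No member passed in the 18-library fit among the markers of endodermis (19), xylem (32), phloem (22), non-hair epidermis and cortex (12) or meristem and stem cell niche (24). The members with the smallest p were FAR4 at log2 1.36, ACL5 at 0.80, APL at 0.43, CYP708A2 at 1.37 and SCR. The 6-library fit called 4 higher and 3 lower endodermis markers, 1 higher and 6 lower xylem markers, and 2 higher phloem markers. It called 1 higher marker of non-hair epidermis and cortex and none of the meristem and stem cell niche. Among 32 iron, 29 phosphate, 28 jasmonate and salicylate, and 42 detoxification genes none passed in the 18-library fit either. IRT1 was at 0 to 0.0448 CPM in gun1-101 and 0.325 to 14.1 CPM in nac103-11, LPR1 at log2 -1.22, SAG101 at -0.63 and GSTU2 at 0.79. The 6-library fit called 1 higher and 8 lower iron genes, and 2 higher and 5 lower phosphate genes. It called 2 higher and 2 lower jasmonate and salicylate genes, and 8 higher and 6 lower detoxification genes. Over all genes it called 9.22% higher and 8.35% lower. NAC053, a relative of NAC103 that responds to oxidative stress, was the 1 called of 17 genes of mitochondrial dysfunction, at 98.9, 85.1 and 89.4 CPM in gun1-101 and 51.5, 65.9 and 53.3 CPM in nac103-11 (log2 0.68 ± 0.15, adjusted p = 0.0403).

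**Figure D3:**
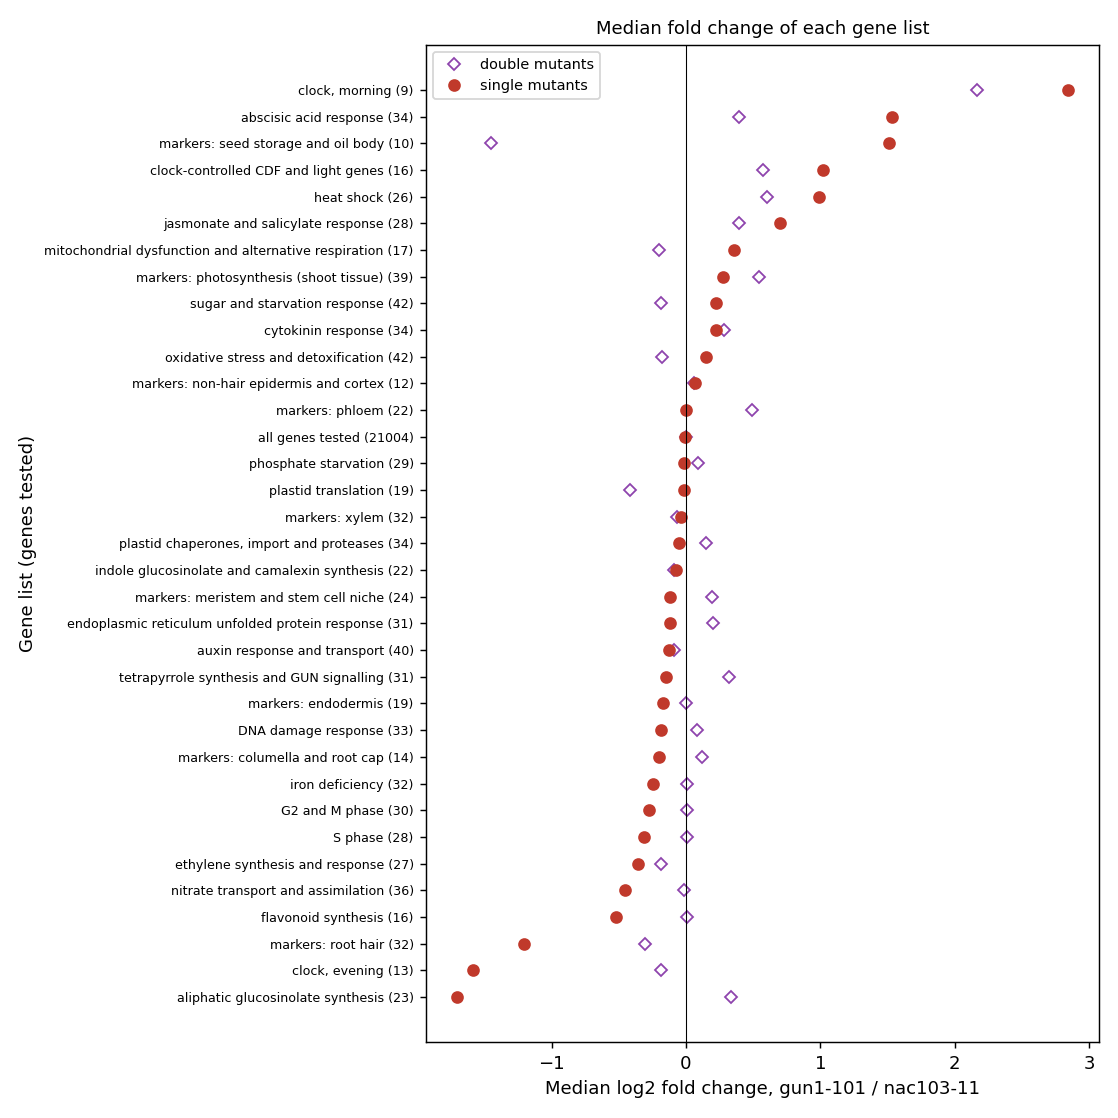
Median log2 fold change of each gene list for gun1-101 over nac103-11 in the single mutants (circles) and in the double mutants with rab8d-2 (diamonds). The number of genes tested is in parentheses, and 0 means equal levels. The circles reach from -1.71 for aliphatic glucosinolate synthesis to 2.84 for the morning clock genes.

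The double mutants measured the same pair of alleles again in 6 other libraries. In that pair 1035 genes (4.93%) differed, 270 higher (1.29%) and 765 lower (3.64%) in gun1-101 rab8d-2, and on log2(TPM + 1) the split was 605 higher and 436 lower, with the median of all genes moved by 0.22. A fit of the 6 double mutant libraries alone called 2 genes. The count of 1035, from the larger fit of all libraries, fell to 446 without the 2 libraries that stood apart. Among the double mutants, gun1-101 rab8d-2 replicates 1 and 2 were unusually close. The chi-square per gene between their counts was 2.19, against 12.8 to 194 for the other pairs of replicates. Without gun1-101 rab8d-2 replicate 1 the larger fit called 11 genes, and without its replicate 2 it called 12. Without nac103-11 rab8d-2 replicates 1, 2 and 3 it called 1668, 1641 and 21. Of the 252 genes of the single mutants, 158 (62.7%) had the same sign in the double mutants, against 60.9% of all genes tested. By direction this was 106 of the 142 higher and 52 of the 110 lower genes. The median log2 fold change of the 142 went from 1.68 in the single to 0.38 in the double mutants, and that of the 110 from -1.86 to 0.03. These genes were chosen by their values in the single mutants, so smaller medians in other libraries are to be awaited from that choice alone. The medians therefore do not show by how much the line difference changed with rab8d-2.

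In both pairs 18 genes differed in the same direction, which is 7.14% of the single mutant list and 1.74% of the double mutant list. Most of them were named for this reason, after their values were seen. Of the 18, 12 were higher and 6 lower, and over all genes the double mutants had 1.29% called higher and 3.64% lower. Without gun1-101 rab8d-2 replicate 1 or 2 the double mutants had 11 or 12 calls in all, so not all 18 kept theirs. MRD1, a gene first described by its lower expression in the methionine over-accumulating mto1 mutant, was at 0.525, 1.84 and 0.132 CPM in gun1-101 and at 47.9, 55.7 and 57.5 CPM in nac103-11 (log2 -6.01 ± 0.66, adjusted p = 0.000847). In WT it was at 84.6, 67.8 and 40.6 CPM, in rab8d-2 at 0.249, 0.201 and 0.729 CPM, in gun1-101 rab8d-2 at 0.0392, 0.0782 and 0 CPM, and in nac103-11 rab8d-2 at 37.9, 53.4 and 69.0 CPM. The gene was thus low in gun1-101, rab8d-2 and their double mutant, and high in WT and both nac103-11 genotypes. It differed from WT in gun1-101 as well (log2 -6.27 ± 0.66, adjusted p = 0.00111).

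QQS, an Arabidopsis orphan gene that affects starch content, had nearly the same distribution. It was at 0.262, 0.134 and 0.132 CPM in gun1-101 and 16.9, 9.22 and 12.2 CPM in nac103-11 (log2 -6.14 ± 1.09, adjusted p = 0.0189). WT was at 20.2, 0.592 and 32.6 CPM, so WT replicate 2 was low. In the double mutants it was at 0.235 to 0.392 CPM and 6.69 to 19.8 CPM (log2 -5.50 ± 1.02, adjusted p = 0.0412). XPL1, the phosphoethanolamine methyltransferase of choline synthesis, was at 39.8, 39.5 and 50.1 CPM in gun1-101 and 261, 322 and 214 CPM in nac103-11 (log2 -2.62 ± 0.41, adjusted p = 0.0110), with WT between at 162, 100 and 70.7 CPM. In the double mutants it was at 29.7, 31.5 and 32.6 CPM against 219, 102 and 115 CPM (log2 -2.22 ± 0.40, adjusted p = 0.0391). TAA1, with log2 -0.73 ± 0.17 in the double mutants (adjusted p = 0.0414), and AT3G20590 were lower in both pairs as well.

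Of the 12 genes higher in both pairs, AT1G70900 had the smallest adjusted p in the single mutants apart from AT3G03870. It was at 71.6, 73.8 and 77.7 CPM in gun1-101 and 28, 32.9 and 32.0 CPM in nac103-11, with WT at 47.3, 38.0 and 35.2 CPM (log2 1.27 ± 0.16, adjusted p = 0.00312). In the double mutants it was at 41.0, 39.9 and 47.7 CPM against 9.22, 10.1 and 7.69 CPM (log2 2.25 ± 0.17, adjusted p = 1.82e-05). AT4G25170 was at 124, 127 and 105 CPM against 38.9, 44.8 and 46.3 CPM (log2 1.45 ± 0.20, adjusted p = 0.00696), and at 82.0, 79.7 and 69.6 CPM against 25.5, 23.1 and 13.4 CPM in the double mutants. SOT18, described above, and NAC053 rose in both pairs, as did UBC12, a ubiquitin-conjugating enzyme, MIOX1, a myo-inositol oxygenase, AT3G03870, AT3G29270, AT5G18130 and AT5G20220. SBT3.3, a subtilase, and WOX2, a homeobox gene, also rose in both pairs, but lay below 1.5 CPM in every single mutant library.

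**Figure D4:**
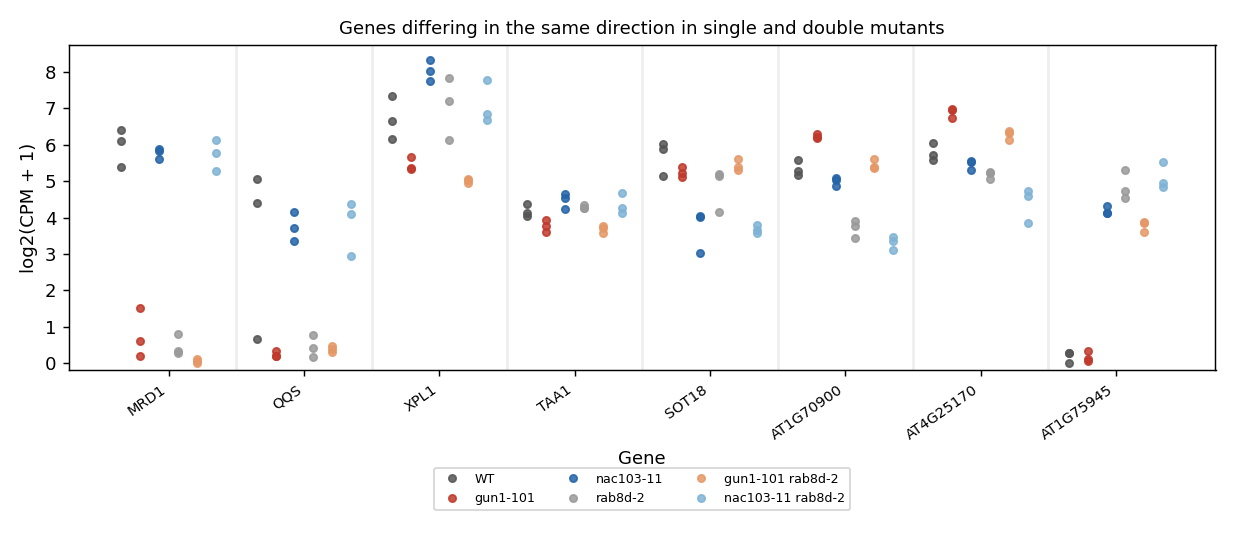
Level of 8 of the 18 genes that differed in the same direction in single and double mutants, as log2(CPM + 1), with 1 point per library for all 6 genotypes. MRD1 and QQS lie at or below 1.84 CPM in gun1-101, rab8d-2 and gun1-101 rab8d-2, and QQS is also low in WT replicate 2 (0.592 CPM). AT1G75945 lies near 0 in WT and gun1-101.

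AT1G75945 had the smallest p of the single mutant comparison and separated the genotypes in another way. It was at 0.262, 0.0448 and 0.0877 CPM in gun1-101 and at 16.4, 18.8 and 16.6 CPM in nac103-11 (log2 -6.97 ± 0.53, adjusted p = 2.86e-05). WT was at 0.199, 0.215 and 0 CPM, so nac103-11 and not gun1-101 departed from WT (log2 6.98 ± 0.54, adjusted p = 3.37e-05). The 3 genotypes with rab8d-2 all had it. Levels ran from 22.2 to 38.3 CPM for rab8d-2 itself, from 11.2 to 13.6 CPM for its double mutant with gun1-101, and from 27.5 to 45.2 CPM for that with nac103-11. Its difference shrank in the double mutants to log2 -1.43 ± 0.37 (adjusted p = 0.0428), and the test of that change passed (log2 5.54, adjusted p = 0.00346).

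The reverse also occurred. The sign turned for 5 genes that passed in both pairs: AK3, PES1 and RBOHB were lower in gun1-101 and higher in gun1-101 rab8d-2, and AT5G60610 and PRF3 went the other way. These are named after their values were seen. AK3, an aspartate kinase at the start of the pathway to methionine and threonine, was at 1.88, 1.93 and 2.33 CPM in gun1-101 and 10.9, 24.2 and 8.76 CPM in nac103-11. In the double mutants it was at 47.8, 49.8 and 62.6 CPM against 17.3, 11.3 and 16.9 CPM. The test of the difference between the pairs passed for 62 genes (0.295%), with 43 above 0 (0.205%) and 19 below (0.0905%). Of these, 30 were among the 252.

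**Figure D5:**
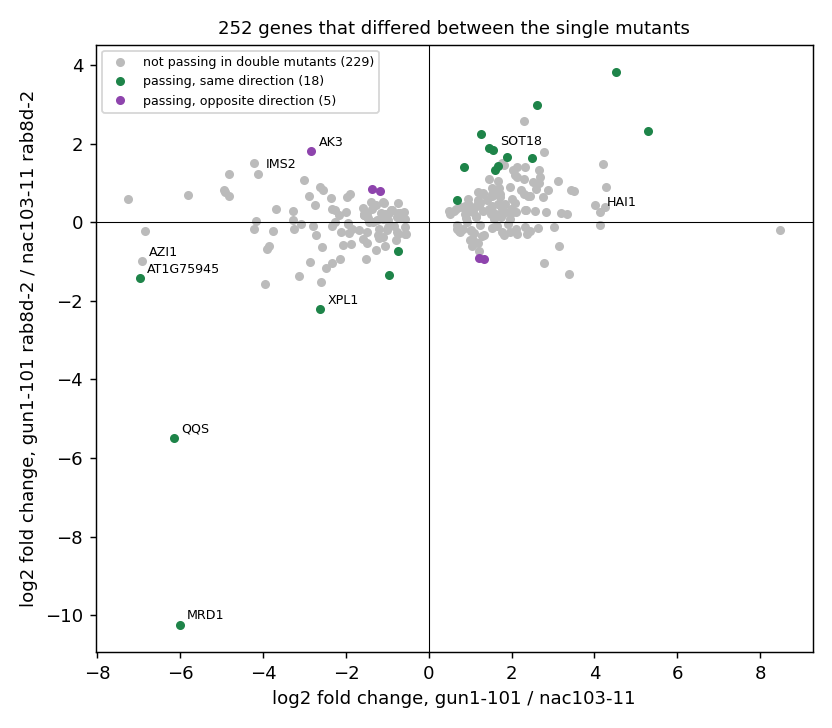
Log2 fold change of gun1-101 over nac103-11 for the 252 genes that differed between the single mutants (horizontal axis), against the same ratio in the double mutants with rab8d-2 (vertical axis). The 18 genes that passed in both pairs with the same direction and the 5 with the opposite direction are coloured, the other 229 are grey, and the positions of MRD1 (vertical) and AT3G05080 (far right) rest on 3 counts and 0 counts in 1 genotype, so their size is not determined.

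Some genes had no counts in one line. A count of 0 over the 3 libraries allows up to 3 counts, or 0.0441 CPM in gun1-101 and 0.0448 CPM in nac103-11, for counting error only. In nac103-11, 7 genes had 0 counts where gun1-101 had at least 100 in all. AT1G75785 was at 18.4, 5.29 and 9.56 CPM in gun1-101 (adjusted p = 0.0669, and 0.00783 in the 6-library fit), but in WT it was at 8.71, 0 and 0.0869 CPM. AT3G05080 was at 2.62, 2.2 and 0.965 CPM in gun1-101 and passed in both fits (adjusted p = 0.0292 and 0.00897). In WT it had 51, 1 and 24 counts. Both genes were present in nac103-11 rab8d-2, with 68, 98 and 30 counts for AT3G05080 and 399, 399 and 21 for AT1G75785. AT3G02010 was at 1.44, 1.88 and 1.58 CPM in gun1-101 and had no count in any library of WT, nac103-11 or the double mutants, with 1 rab8d-2 library at 5.31 CPM. AT1G07500, the cyclin-dependent kinase inhibitor gene SMR5, was at 11.3, 9.81 and 3.82 CPM in gun1-101 and at 0, 0 and 14 CPM in WT (adjusted p = 0.188, and 0.00683 in the 6-library fit). The remaining ones were uneven within gun1-101: LpxC3 at 0, 15.6 and 0 CPM, AT1G27580 at 5.16, 0 and 0 CPM, and CRU3, a seed storage protein gene, at 0.394, 8.47 and 1.01 CPM.

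In gun1-101, 3 genes had 0 counts where nac103-11 had at least 100. Each rested on 1 or 2 libraries of nac103-11: AT4G12543 had 229, 192 and 0 counts, AT1G80315 had 0, 190 and 0 counts, and LTL1, a lipase gene, was at 0, 0 and 8.44 CPM. AT4G29200 had 0 counts in all 6 libraries of both lines and was at 104, 34.5 and 59.6 CPM in WT, so it differed from WT in both mutants and not between them.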

How the data were processed

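RNA was measured by sequencing of mRNA libraries from root tips, with 3 libraries for each of 6 genotypes. The authors deposited estimated counts per gene (expected counts) made with RSEM 1.3.1 on TAIR10, per the submitters' processing notes, and the authors' TPM values in the same table. The strand setting is not given in the sources used here. The sum of the deposited TPM was 67.1% to 79.5% of what full TPM columns give, and 12 columns of genotype means were not used. Expected counts were rounded, since 19.6% of them were not whole (tolerance 1e-06). Total counts were 22625981 to 23090995 per library.

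Tests were made with edgeR 4.0.16 under R 4.3.3, whose filterByExpr function kept 21004 of 25177 genes and removed 4173, TMM factors were 0.937 to 1.03 in the single mutants, and a quasi-likelihood model, in its robust form, gave each genotype 1 coefficient over all 18 libraries. Genes with a Benjamini-Hochberg adjusted p below 0.05 over all genes tested were called. The SE is the absolute log2 fold change over the square root of the F statistic. The code was run on simulated counts that had the same dispersion in every genotype and no distant library. That run does not cover the unequal spread of the genotypes here. Each choice was varied in turn: scaling (size factors from DESeq2 1.42.0), the test (DESeq2's Wald test, or limma 3.58.1 on log2(TPM + 1)), the filter, the robust step, a block for the replicate number, and the libraries fitted, with each one left out.

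Genes named are the 3 mutated ones, those with the 15 largest increases and the 15 largest decreases among called genes without overlap and with at least 5 CPM in the higher line, genes with 0 counts in one line and at least 100 in the other, and, per list, the called members with the smallest p (3 at most) or, with none called, the member nearest to the threshold. Other names are said to be chosen after their values were seen. The 34 lists hold 1093 entries, of which 942 matched a gene. The comparison and the lists were chosen with earlier results of these data known, and no list was tested. Coordinates and promoter sequences are from RefSeq TAIR10.1, to which all genes matched by identifier. One promoter sequence is not reported here.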

Additional observations from a re-analysis of the deposited data

Results flagged for a closer look

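For 14 named genes the difference between gun1-101 and nac103-11 itself differed between the pair without and the pair with rab8d-2, tested as double mutants minus single mutants in edgeR's quasi-likelihood fit of all 18 libraries. Among the aliphatic glucosinolate genes the log2 difference was 6.05 for CYP79F2 (adjusted p = 0.00545), 5.73 for MAM1 (adjusted p = 0.0106), 5.51 for CYP83A1 (adjusted p = 0.0404), 5.35 for IMS2 (adjusted p = 0.00131) and 3.53 for MYB28 (adjusted p = 0.0138). For each of these genes all gun1-101 libraries lay below all nac103-11 libraries. All 252 called genes separated the lines in 1 direction or the other, as did 39.7% of all genes tested. AT1G05700 had a log2 difference of 5.67 (adjusted p = 0.0138) and AT1G75945 one of 5.54 (adjusted p = 0.00346). G6PD3 had 2.37 (adjusted p = 0.00358), with 22.9, 20.6 and 25.8 CPM in nac103-11 rab8d-2 and 27.0, 26.2 and 25.9 CPM in gun1-101 rab8d-2. AT5G63350 had -3.80 (adjusted p = 0.0491), being higher in gun1-101 and not in gun1-101 rab8d-2. The 5 genes that passed in both pairs with opposite signs are among the 14. Their choice made this nearly certain, since the value tested is the double mutant fold change minus the single mutant one. The log2 difference was 4.65 for AK3 (adjusted p = 0.00545), 1.97 for RBOHB (adjusted p = 0.00545), 2.23 for PES1 (adjusted p = 0.0104), -2.27 for AT5G60610 (adjusted p = 0.0104) and -2.11 for PRF3 (adjusted p = 0.0214).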

How the results depend on the processing

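Counts of genes called between gun1-101 and nac103-11 (252) depended on which libraries set the spread and on the tool. They were 709 with limma on log2(TPM + 1), 1392 with the DESeq2 Wald test, 503 in a fit of WT and the single mutants, 1824 without the 2 libraries that lay far from their groups (WT replicate 3, and replicate 3 of nac103-11 rab8d-2), and 3505 in the 6 libraries alone. They ranged from 9 to 105 when each library of the pair was left out of the 18-library fit. In the 6-library fit, chosen after seeing the data, they were 1575, 1167 and 3175 without gun1-101 replicates 1, 2 and 3, and 4180, 2633 and 1909 without nac103-11 replicates 1, 2 and 3. DESeq2 size factors (246), no filter (222), the non-robust fit (277) and the replicate block in 18 libraries (172) stayed within 1.5 times. The cause of the changes was not tested.

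Of the 46 named genes that were called, 46 passed in the 6 libraries alone, 42 with DESeq2 size factors, 44 with limma, 41 with no filter, 39 in the fit of WT and the single mutants and 31 with the replicate block, and 5 (AT1G75945, MRD1, CYP79F2, IMS2 and G6PD3) kept the call without each of the 6 libraries in turn. None of these 46 changed direction under the alternatives run. The double mutants (1035) gave 2596 with the DESeq2 Wald test, 446 without the 2 libraries named, 2 in their 6 libraries alone, and 11 to 1668 leaving out each library. The test of the difference between the pairs (62) gave 111 with limma, 447 with DESeq2, 38 with no filter and 9 to 71 leaving out each library. Against WT, gun1-101 (4) gave 78 with DESeq2, 3946 without the 2 libraries and 2 to 39 leaving out each library. For nac103-11 (2) the counts were 4 with limma, 58 with DESeq2, 1219 without the 2 libraries and 2 to 3 leaving out each library. The counts of 3946 and 1219 rest on WT replicates 1 and 2 only. These lay on the side of nac103-11 on the first principal component.

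The labels do not say whether libraries with the same number shared a batch, and this was not tested. The correlation of their deviations from the group means was 0.24, 0.12 and 0.03 for replicates 1, 2 and 3 of the single mutants. Of gun1-101, replicates 1 and 2 correlated best with their own number and replicate 3 did not. For the morning clock list, replicate 3 was the highest library of WT (6.31), rab8d-2 (5.76) and gun1-101 rab8d-2 (4.65). It was the lowest of nac103-11 (2.74) and nac103-11 rab8d-2 (1.58), and lay between the others in gun1-101 (5.64). With the number as a replicate block, the calls were 172 (18 libraries) and 3122 (6 libraries) for the single mutants, 28 for the double mutants and 37 for the difference between the pairs. Expression below 1 CPM, as for NAC103, rests on few counts.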
